A study of Mus musculus with 21 samples.

Results

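NICD in CD24hi cells was measured on 4 of the 21 arrays of the series, 2 of NICD and 2 of untreated mouse small intestine, picked by their sample titles. All 4 samples were TdTomato-positive cells, gated as CD24hi by flow cytometry and labelled Mist1-positive. Mist1, encoded by Bhlha15, regulates transcription in secretory cells. TdTomato is a red fluorescent protein, and Paneth cells and secretory precursors carry much CD24 on their surface. The tested condition is named NICD in the titles and NICD-expressed in the series text. NICD usually stands for a Notch intracellular domain, but the labels do not spell it out or name the allele, the promoter or Cre that drives it, the time of induction, or the strain, age or sex of the mice. The same markers were used to sort the untreated controls, so the reporter is shared by both groups. Nothing in the labels says whether replicates 1 and 2 came from separate mice, and p-values measure the spread between these samples. The other sorted arrays, 8 groups of 2, were used to estimate the spread of each gene and for values set side by side.

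Notch receptors are cut on contact with a ligand on a neighbouring cell. The released intracellular domain enters the nucleus, joins the DNA-binding protein RBPJ and switches on targets of the Hes and Hey families. In the intestinal crypt Hes1 is known to repress Atoh1, the gene that commits a cell to secretory fate. Cells with active Notch usually become absorptive, and cells without it become Paneth, goblet, enteroendocrine or tuft cells.

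Promoters are shown for 5 genes that were higher with NICD, picked after their values were seen, 1 each for a receptor, an enteroendocrine factor, an enteroendocrine product, a tuft cell gene and the gene with the largest difference. They are Notch3 at chr17:32166841-32167140 on the minus strand, Neurog3 at chr10:62132840-62133139 on the plus strand, Scg5 at chr2:113829042-113829341 on the minus strand, Sh2d6 at chr6:72519987-72520286 on the minus strand and Gkn1 at chr6:87350866-87351165 on the minus strand. Each runs from 250 bases before to 50 bases after the annotated start of the gene on build GRCm38.p6, written 5′ to 3′ on the strand of the gene, and comes from RefSeq. Capitals mark the core of the RBPJ motif, TGGGAA, or its reverse complement TTCCCA.
Notch3: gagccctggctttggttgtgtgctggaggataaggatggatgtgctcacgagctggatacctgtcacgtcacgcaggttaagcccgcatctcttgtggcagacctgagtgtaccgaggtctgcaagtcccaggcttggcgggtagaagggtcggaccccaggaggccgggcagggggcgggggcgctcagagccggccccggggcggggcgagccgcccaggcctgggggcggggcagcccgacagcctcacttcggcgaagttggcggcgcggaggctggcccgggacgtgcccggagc
Neurog3: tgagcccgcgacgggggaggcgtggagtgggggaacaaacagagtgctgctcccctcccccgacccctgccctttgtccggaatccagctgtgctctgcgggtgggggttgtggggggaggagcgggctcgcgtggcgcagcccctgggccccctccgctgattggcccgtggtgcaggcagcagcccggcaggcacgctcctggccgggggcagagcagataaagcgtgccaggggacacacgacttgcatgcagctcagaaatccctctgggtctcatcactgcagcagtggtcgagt
Scg5: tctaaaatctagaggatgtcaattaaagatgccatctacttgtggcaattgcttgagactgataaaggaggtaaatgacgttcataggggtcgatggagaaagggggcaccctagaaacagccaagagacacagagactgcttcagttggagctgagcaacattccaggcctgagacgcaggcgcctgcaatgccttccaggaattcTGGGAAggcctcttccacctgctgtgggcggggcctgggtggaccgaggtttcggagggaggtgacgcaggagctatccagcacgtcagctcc
Sh2d6: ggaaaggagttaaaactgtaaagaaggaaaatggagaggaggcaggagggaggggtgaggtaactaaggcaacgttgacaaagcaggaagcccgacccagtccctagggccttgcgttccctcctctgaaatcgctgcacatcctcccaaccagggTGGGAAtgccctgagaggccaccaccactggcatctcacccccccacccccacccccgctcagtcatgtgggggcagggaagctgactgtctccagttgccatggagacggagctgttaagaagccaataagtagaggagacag
Gkn1: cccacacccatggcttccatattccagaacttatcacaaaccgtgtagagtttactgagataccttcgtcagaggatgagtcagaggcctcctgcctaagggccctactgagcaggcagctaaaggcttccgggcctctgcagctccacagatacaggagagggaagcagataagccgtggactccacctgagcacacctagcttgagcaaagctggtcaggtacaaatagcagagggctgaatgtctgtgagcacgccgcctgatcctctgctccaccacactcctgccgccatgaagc
The motif stands 1 time in Scg5, 43 bases before the start, and 1 time in Sh2d6, 94 bases before it, and these letters are not in the windows of Notch3, Neurog3 and Gkn1. Of all 32851 promoters of this length in the table, 25.6% hold the motif. Among enteroendocrine genes that were higher with NICD it stands in 3 of 19 promoters, and among such tuft genes in 3 of 9. Heyl and Ccnd1, the 2 Notch target genes that passed the test, are named without a sequence.

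Levels are given as log2(signal + 16), where signal is the scaled brightness of a probe set, and differences are NICD minus untreated on that scale, ± SE with n = 2 arrays per group. The 1 probe set with the highest mean stands for each gene, and folds of dim genes are understated. A gene passed the test when limma's p-value, adjusted over all 11854 genes tested, was under 0.05. By this rule 557 genes, 4.70% of those tested, were higher with NICD and 221, 1.86%, were lower. Both NICD arrays lay above both untreated arrays for 25.6% of genes and below both for 23.1%. The median difference over all genes was 0.01, and 2854 of the 11854 genes had an unadjusted p under 0.05 in limma's test.

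The counts depended on which array was left out. The control probes of NICD replicate 2 were unlike those of the other 19 sorted arrays: its signal for the spike-in cre was 75343, where the others had 22819 to 48833, and that for bioB was 5993, where the others had 1983 to 4013. Its actin 3′ to 5′ ratio was 1.03, and the others had 1.30 to 1.58. The 2 NICD arrays correlated at 0.942 across genes, with 916 genes more than 1 unit apart, and the 2 untreated arrays at 0.969, with 433 such genes. Without NICD replicate 2, 195 genes were higher and 11 lower, and without NICD replicate 1, 1127 were higher and 1111 lower. Leaving out untreated replicate 1 gave 321 higher and 57 lower, and leaving out untreated replicate 2 gave 214 higher and 34 lower. Calls that passed in the full fit and in all 4 of these fits numbered 144 higher and 5 lower. The untreated arrays also differed in sex-linked genes. Xist, the RNA that silences an X chromosome, stood at 7.29 and 9.28 on the NICD arrays and at 6.71 and 13.55 on the untreated arrays, and Eif2s3y, on the Y chromosome, at 10.67 and 10.05 with NICD and at 11.22 and 5.40 in untreated cells. Untreated replicate 2 is the 1 array of the 4 with high Xist and low Eif2s3y.

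**Figure D1:**
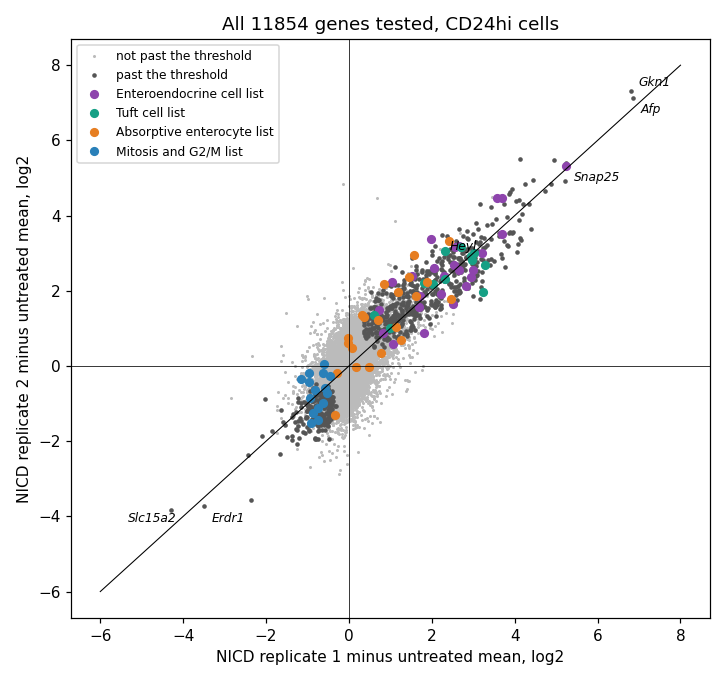
Each point is 1 gene in CD24hi cells, with NICD replicate 1 minus the untreated mean on the x axis and NICD replicate 2 minus the untreated mean on the y axis, both on the log2(signal + 16) scale. Dark points passed the test, colours mark 4 gene lists, and the diagonal is equality. Enteroendocrine and tuft genes lie above 0 on both axes, and Gkn1 and Afp lie farthest out at about equal height on both arrays.

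**Figure D2:**
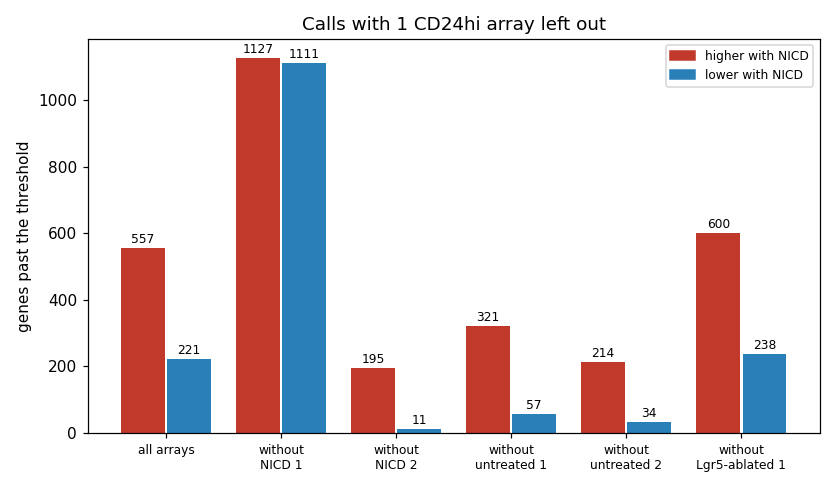
Bars give the number of genes past the threshold that were higher (left bar) or lower (right bar) with NICD in CD24hi cells, with all arrays and with 1 array left out. Higher calls ran from 195 to 1127 and lower calls from 11 to 1111 when 1 of the 4 compared arrays was omitted.

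Of the Notch pathway, a few genes passed and most did not. Heyl, a transcription factor of the Hey family and a direct Notch target, stood at 10.53 and 11.78 on the NICD arrays and at 8.29 and 8.28 on the untreated arrays. Both NICD arrays were clearly apart from the untreated pair. The difference was 2.87 ± 0.43, adjusted p = 0.00092, and the call held without any 1 of the 4 arrays, the highest adjusted p being 0.0277. A second Heyl probe set differed by 1.99.

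Hes1, the target that represses Atoh1, stood at 8.04 and 8.31 with NICD and at 7.24 and 7.38 in untreated cells, without overlap, but its difference of 0.87 ± 0.34 did not pass, adjusted p = 0.128. Nrarp, a Notch-induced inhibitor of the pathway, had levels of 11.47 and 10.65 with NICD and 10.25 and 10.33 in untreated cells, a difference of 0.77 ± 0.29 with adjusted p = 0.12. Its second probe set gave 10.66 and 10.76 with NICD against 9.46 and 9.72 in untreated cells, a difference of 1.12 with limma's adjusted p = 0.00498 over all probe sets kept. The 2 probe sets of Nrarp thus fell on different sides of the threshold. Ccnd1, a cyclin of the G1 phase, was higher by 0.68 ± 0.18, adjusted p = 0.0304, a call lost without NICD replicate 2 (adjusted p = 0.157) and without untreated replicate 1 (adjusted p = 0.246). In all, 2 of 8 tested members of the target list were higher and 0 lower, with a median of 0.44. Of all genes, 4.70% were higher and 1.86% lower. Hes5, Hey1, Hey2 and Hes3 were too dim to be tested.

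Among receptors, 1 of 4 was higher, against 4.70% of all genes. Notch3 stood at 8.28 and 9.44 with NICD and at 7.51 and 6.95 in untreated cells. The NICD arrays lay above the untreated pair by unequal steps, and the difference was 1.63 ± 0.37, adjusted p = 0.0138. That call was lost without NICD replicate 2 (adjusted p = 0.262) and without untreated replicate 2 (adjusted p = 0.143). Notch1 stood at 9.01 and 9.04 with NICD and at 9.75 and 9.55 in untreated cells, a difference of -0.63 ± 0.30, adjusted p = 0.218, and a second probe set gave -0.35. The files give no position for these probe sets, so whether they would read an expressed Notch1 fragment is not known and Notch1 checks nothing about the label. Notch2 and Notch4 differed by -0.66 and 0.10, and neither passed.

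Of 7 tested ligands 1 was higher, against 4.70% of all genes. Dner, an atypical ligand expressed in neurons, had levels of 9.83 and 9.06 with NICD and 6.92 and 6.64 in untreated cells, and differed by 2.67 ± 0.53, adjusted p = 0.00633 (0.0676 without untreated replicate 2). Dll1 and Dll4, the ligands that secretory cells present in the crypt, differed by -0.31 and -0.27 and did not pass. Of 10 tested genes of receptor cleavage and nuclear signalling, among them Adam10, Ncstn, Rbpj and Maml1, limma called 0, and 0 had an unadjusted p under 0.05. Of 15 tested modulators 1 was higher and 1 lower, 6.67% each, against 4.70% of all genes higher and 1.86% lower. Mfng, which adds sugars to Notch receptors, was higher by 1.84 ± 0.48, adjusted p = 0.0302. Itch, a ubiquitin ligase that promotes Notch breakdown, was lower, by -0.70 ± 0.17, adjusted p = 0.0196. Both calls were lost without NICD replicate 2, at adjusted p = 0.31 for Mfng and 0.183 for Itch, and without either untreated array.

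**Figure D3:**
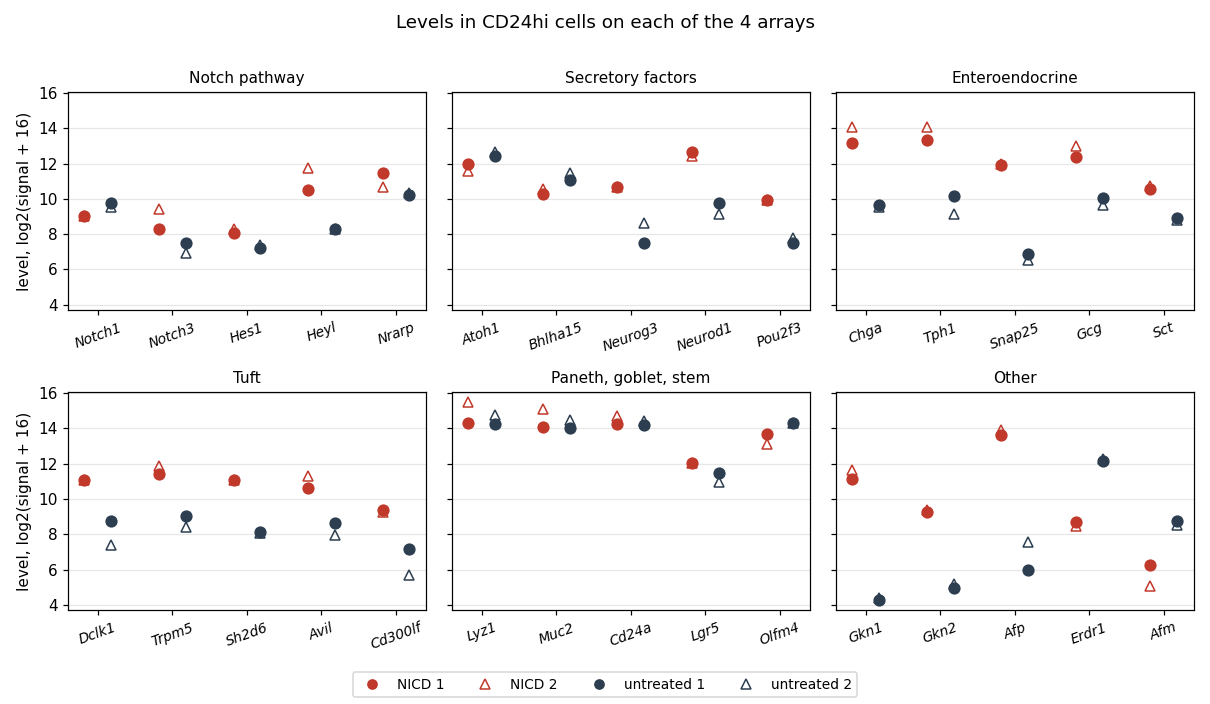
Points give the level, log2(signal + 16), of 30 genes on each of the 4 CD24hi arrays, NICD left and untreated right for each gene, with filled circles for replicate 1 and open triangles for replicate 2. The NICD pair lies well above the untreated pair for Heyl, for the enteroendocrine and tuft genes and for Gkn1, Gkn2 and Afp, well below it for Erdr1 and Afm, and near it for Lyz1, Muc2 and Cd24a.

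Enteroendocrine cells are the hormone-making cells of the gut lining, and their genes were higher with NICD as a group. Of 25 list members, all tested, 20 were higher and 0 lower, against 4.70% of all genes higher, with a median difference of 2.48 against 0.01 over all genes. Both NICD arrays lay above both untreated arrays for all 25 members, against 25.6% of all genes. Of the 20 calls, 12 held without any 1 of the 4 arrays, and 13 list members were called higher without NICD replicate 2 and 13 without untreated replicate 2. In these bulk samples, more cells of a type and more RNA per cell cannot be told apart.

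Transcription factors of the enteroendocrine lineage were part of this. Neurog3, the factor that starts the lineage, stood at 10.65 and 10.70 with NICD and at 7.50 and 8.61 in untreated cells, a difference of 2.62 ± 0.50, adjusted p = 0.00429 (0.0661 without untreated replicate 1). Neurod1, which acts after Neurog3, had levels of 12.65 and 12.45 with NICD and 9.75 and 9.13 in untreated cells. The groups were separated by more than either pair's spread, and the difference was 3.11 ± 0.51, adjusted p = 0.00182. Insm1, a zinc finger factor of endocrine cells, differed by 2.66 ± 0.45 and Isl1 by 2.60 ± 0.47, at adjusted p = 0.00224 and 0.00314. Pax6 differed by 2.91 ± 0.61, adjusted p = 0.00857, and lost its call without NICD replicate 2 (adjusted p = 0.111) and without untreated replicate 2 (0.0725). Pax4, named after its values were seen, was higher by 2.13 ± 0.58, adjusted p = 0.0355, with adjusted p = 0.295 without NICD replicate 2, 0.118 without untreated replicate 1 and 0.167 without untreated replicate 2.

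The 4 largest differences of the list were those of Snap25, Tph1, Chga and Scg5. Snap25, a protein of vesicle fusion, averaged 11.96 with NICD, with 11.93 on the lower array, and 6.68 in untreated cells, with 6.85 on the higher array. Its difference of 5.28 ± 0.62, adjusted p = 0.000156, was larger than that of every other list member. Chga, the granule protein chromogranin A, had levels of 13.18 and 14.07 with NICD and 9.64 and 9.57 in untreated cells, a difference of 4.02 ± 0.65, adjusted p = 0.00155. Tph1, the enzyme that starts serotonin synthesis, stood at 13.33 and 14.10 with NICD and at 10.14 and 9.15 in untreated cells and differed by 4.07 ± 0.65, adjusted p = 0.00145. Scg5, a chaperone of hormone processing, differed by 3.60 ± 0.58, adjusted p = 0.00152. These 4 calls held without any 1 array.

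Of the hormone genes, 6 that passed are named after their values were seen. Sct, the secretin gene, stood at 10.59 and 10.74 with NICD and at 8.93 and 8.81 in untreated cells, a difference of 1.79 ± 0.25, adjusted p = 0.000522, and Tac1, the substance P gene, was higher by 2.48 ± 0.39, adjusted p = 0.00139. Both held without any 1 array. Gcg, the proglucagon gene, differed by 2.86 ± 0.54, Cck, the cholecystokinin gene, by 2.68 ± 0.49, Sst, the somatostatin gene, by 2.33 ± 0.53, and Gip, the gene of an incretin hormone, by 1.63 ± 0.40. These calls were lost without NICD replicate 2, at adjusted p = 0.0709 for Gcg, 0.0829 for Cck, 0.162 for Sst and 0.348 for Gip, and without untreated replicate 2, at 0.0577, 0.0689, 0.058 and 0.0566 in the same order. Sst and Gip were also lost without untreated replicate 1, at 0.102 and 0.167. Pyy, Ghrl, Nts, Ddc and Pcsk1n, the 5 members that did not pass, differed by 0.83 to 1.63.

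Tuft cells are chemosensory cells that signal to immune cells, and their genes rose as well. Of 12 tested members 10 were higher and 0 lower, against 4.70% of all genes higher, with a median difference of 2.64, and 6 calls held without any 1 array. The other 8 of the 20 listed genes were not tested. A gene was tested if it lay above the array median on at least 2 of 20 sorted arrays, so NICD arrays alone could admit it. Gfi1b, called higher, stood at 7.72 and 7.89 with NICD and at 5.39 and 6.01 in untreated cells. The share of tested members called higher is therefore not independent of the filter. Dclk1, a kinase used as a tuft cell marker, stood at 11.10 and 11.07 with NICD and at 8.75 and 7.40 in untreated cells. The untreated arrays differed from each other by more than the NICD arrays did, and the difference was 3.01 ± 0.45, adjusted p = 0.000784. Its other 6 probe sets also differed upward, by 1.87 to 2.56. Trpm5, a cation channel of taste-like signalling, had levels of 11.41 and 11.88 with NICD and 9.02 and 8.40 in untreated cells, a difference of 2.94 ± 0.50, adjusted p = 0.00219. Sh2d6 differed by 2.94 ± 0.51, Cd300lf, a surface receptor, by 2.89 ± 0.41, and Avil, the actin-binding protein advillin, by 2.68 ± 0.33, at adjusted p = 0.00239, 0.000663 and 0.000202.

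Pou2f3, the transcription factor that tuft cells require, stood at 9.95 and 9.96 with NICD and at 7.48 and 7.79 in untreated cells, a difference of 2.32 ± 0.46, adjusted p = 0.00622 (0.0628 without NICD replicate 2 and 0.057 without untreated replicate 1). Alox5ap, a protein of leukotriene synthesis, was higher by 2.97 ± 0.59, adjusted p = 0.00573 (0.0763 without untreated replicate 2). Plcb2 and Hpgds, with differences of 0.98 and 1.0, did not pass.

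Atoh1, the secretory master gene, went the other way. Its levels were 11.96 and 11.61 with NICD and 12.44 and 12.64 in untreated cells, and the difference was -0.76 ± 0.20, adjusted p = 0.0346. The call was lost without NICD replicate 2 (adjusted p = 0.325), without untreated replicate 1 (0.0836) and without untreated replicate 2 (0.203). Bhlha15, the gene of Mist1 itself, stood at 10.29 and 10.56 with NICD and at 11.09 and 11.46 in untreated cells, a difference of -0.84 ± 0.26, adjusted p = 0.0641. Of the 6 tested genes that Mist1 is known to regulate 1 passed, against 4.70% of all genes higher. It was Serpini1, the neuroserpin gene, higher by 2.82 ± 0.42, adjusted p = 0.000795. The list median was 0.01. Both NICD arrays lay below both untreated arrays for 3 of the 6 and above both for 2, against 23.1% and 25.6% of all genes. Over 22 tested secretory transcription factors, 9 were higher and 1, Atoh1, was lower, against 4.70% of all genes higher and 1.86% lower. Of the 9, 4 are also in the enteroendocrine list and 2 in the tuft list. The calls of Neurod1, Insm1 and Isl1 held without any 1 array, 3 of the 10.

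No tested Paneth or goblet cell gene passed in either direction. Limma called 0 of 16 tested Paneth genes, 6 of which had an unadjusted p under 0.05, and 0 of 19 goblet genes, 4 of which did. Of all 11854 genes tested, 2854 had an unadjusted p under 0.05. The other 8 of the 24 listed Paneth genes were not tested. They were Defa5, Defa17, Defa20, Defa21, Defa22, Defa23, Defa24 and Defa26, so the counts say nothing about them. Retnlb of the goblet list was not tested either. Lyz1, the Paneth lysozyme, stood at 14.30 and 15.51 with NICD and at 14.26 and 14.76 in untreated cells, and Muc2, the goblet mucin, at 14.11 and 15.11 with NICD and at 14.03 and 14.49 in untreated cells. For both genes NICD replicate 2 was high and NICD replicate 1 lay within the untreated range. Without NICD replicate 1, 7 Paneth genes were called higher and 1 lower, and 3 goblet genes higher. The list medians were 0.38 for Paneth and 0.15 for goblet genes, and their sign turned without NICD replicate 2, at -0.11 and -0.20. The goblet median was also below 0 without untreated replicate 1, at -0.18. Cd24a, the sorting marker, stood at 14.27 and 14.73 with NICD and at 14.17 and 14.40 in untreated cells, a difference of 0.22 ± 0.18, adjusted p = 0.474.

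**Figure D4:**
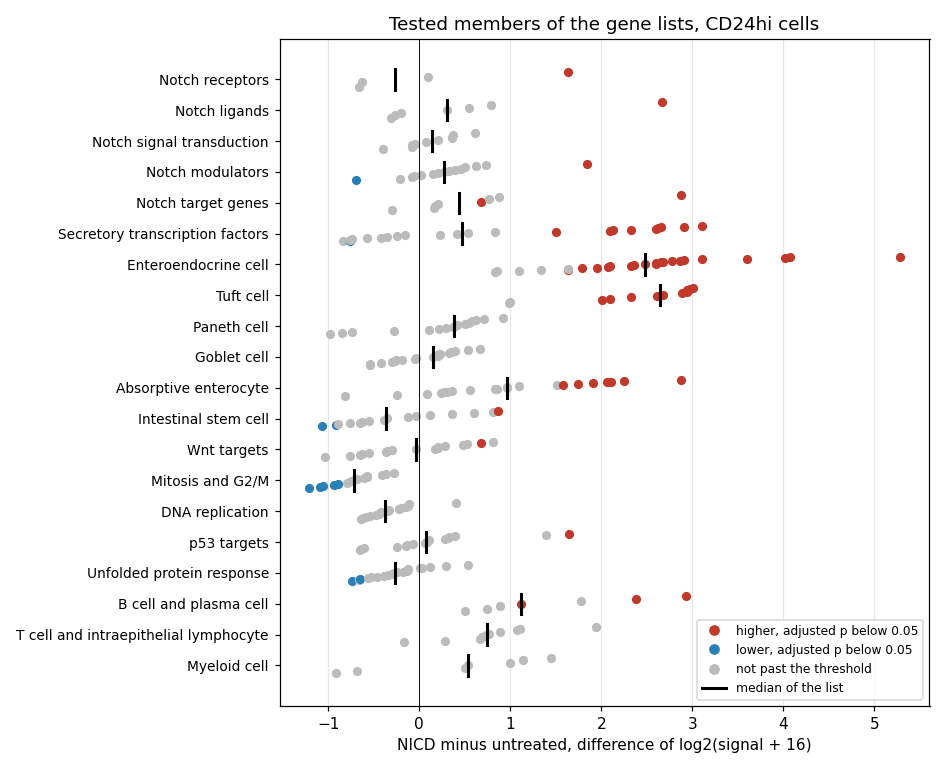
Each point is a tested member of a gene list, placed by its difference, NICD minus untreated, of log2(signal + 16) in CD24hi cells, with the list median as a black bar and colours for calls. Medians stand at 2.48 for the enteroendocrine and 2.64 for the tuft list, at 0.38 for the Paneth and 0.15 for the goblet list (-0.11 and -0.20 without NICD replicate 2), and at -0.72 for the mitosis list.

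Absorptive enterocytes take up nutrients, and 7 of 21 tested genes of this list were higher and 0 lower, against 4.70% of all genes higher, with a median of 0.96. Without untreated replicate 2, 2 were called and the median was 0.26, without NICD replicate 2, 3 were called, and without untreated replicate 1 the median was 1.62. Krt20, a keratin of differentiated villus cells, stood at 11.48 and 11.85 with NICD and at 9.73 and 9.48 in untreated cells. This gave 2.06 ± 0.21, adjusted p = 7.02e-05, and the call held without any 1 array. The apolipoprotein gene Apoa1 had levels of 11.68 and 12.59 with NICD and 10.21 and 10.23 in untreated cells, a difference of 1.91 ± 0.32, adjusted p = 0.00217, which also held. Apoc3 differed by 2.87 ± 0.54, Apoa4 by 2.25 ± 0.47 and Apob, named after its values were seen, by 1.58 ± 0.35, and their adjusted p without NICD replicate 2 was 0.0774, 0.175 and 0.2. Without untreated replicate 2 it was 0.0711 for Apoc3, 0.0684 for Apoa4 and 0.156 for Apob. Slc15a1, a peptide transporter, differed by 2.11 ± 0.48 (adjusted p = 0.149 without untreated replicate 2). Rbp2, a retinol-binding protein, differed by 1.74 ± 0.48, with adjusted p = 0.259 without NICD replicate 2, 0.0625 without untreated replicate 1 and 0.247 without untreated replicate 2. The brush border genes Alpi and Lct differed by 0.96 and 1.51 and did not pass, and Fabp1 and Fabp2 by 1.10 and 0.27.

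Stem cell genes were mixed. Of 17 tested, 1 was higher and 2 lower, against 4.70% of all genes higher and 1.86% lower, with a median of -0.37. Lgr5, the stem cell receptor, stood at 12.03 and 12.02 with NICD and at 11.48 and 10.95 in untreated cells, a difference of 0.81 ± 0.56, adjusted p = 0.396. Olfm4, a secreted stem cell marker that Notch is known to induce, stood at 13.70 and 13.13 with NICD and at 14.32 and 14.30 in untreated cells, a difference of -0.89 ± 0.31, adjusted p = 0.091. Smoc2, a matrix protein of stem cells, was higher by 0.86 ± 0.22, and Aqp4, a water channel, and Cdca7, a nuclear protein, were lower by -1.07 ± 0.27 and -0.91 ± 0.25. All 3 calls were lost without NICD replicate 2, at adjusted p = 0.208, 0.0986 and 0.425, and without untreated replicate 1, at 0.0917, 0.177 and 0.267. Smoc2 was also lost without untreated replicate 2, at 0.153. Of 17 Wnt target genes Ccnd1 passed and 0 were lower, and of 6 genes tied to reserve stem cells Clu passed. Higher calls were thus 5.88% and 16.7% of these lists, against 4.70% of all genes.

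All 15 tested mitosis genes had differences below 0, with a median of -0.72, and 5 of them passed, against 1.86% of all genes lower. Birc5, which guards chromosome segregation, stood at 9.54 and 8.92 with NICD and at 10.56 and 10.33 in untreated cells, a difference of -1.21 ± 0.32, adjusted p = 0.0316. Cenpf, Bub1, Top2a and Cdc20 differed by -1.09, -1.06, -0.94 and -0.89. All 5 calls were lost without NICD replicate 2, at adjusted p from 0.194 for Cdc20 to 0.366 for Top2a, and all 5 without untreated replicate 1, from 0.104 for Cenpf to 0.22 for Bub1. Without untreated replicate 2, Cenpf kept its call and the other 4 lost theirs, at adjusted p from 0.0955 for Bub1 to 0.203 for Top2a, and without NICD replicate 1 Cdc20 lost its call, at 0.0704. Mki67, the proliferation marker, stood at 11.06 and 10.69 with NICD and at 11.57 and 11.78 in untreated cells, adjusted p = 0.127. DNA replication genes had a median of -0.38, and limma called 0 of 16. An unadjusted p under 0.05 was reached by 3 of them, and by 2854 of all 11854 genes. When limma tested all probe sets kept, another probe set of Rrm1, Rrm2 and Mcm6 passed as lower. They differed by -1.23, -0.84 and -0.89, at adjusted p = 0.0273, 0.0471 and 0.0497. The second probe set of Cdc45 was higher by 0.50 and did not pass.

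Cdkn1a, the cell cycle inhibitor p21, was higher. It stood at 12.54 and 13.58 with NICD and at 11.53 and 11.31 in untreated cells, a difference of 1.64 ± 0.29, adjusted p = 0.00239 (0.0516 without NICD replicate 2). No other of the 16 tested p53 target genes passed, so 6.25% of the list was higher, against 4.70% of all genes. The list median was 0.07.

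The largest differences lay outside these lists for the most part. Gkn1, a gene of the stomach lining known as gastrokine 1, stood at 11.14 and 11.65 with NICD and at 4.27 and 4.39 in untreated cells. The untreated values are near the lowest that the scale allows, and the difference was 7.07 ± 0.65, adjusted p = 6.23e-05. A second Gkn1 probe set differed by 4.57. Gkn2, a related gastrokine named after its values were seen, had levels of 9.27 and 9.37 with NICD and 4.95 and 5.19 in untreated cells, a difference of 4.25 ± 0.58, adjusted p = 0.00046. Both calls held without any 1 array, and Gkn3, another gastrokine, which is a stem cell marker, differed by 0.60 and did not pass.

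Afp, the fetal serum protein alpha-fetoprotein, stood at 13.62 and 13.89 with NICD and at 5.98 and 7.55 in untreated cells, a difference of 6.99 ± 1.30, adjusted p = 0.00385. After these and beside Snap25 came Cwh43 at 5.32 ± 0.67, Aqp9, a glycerol channel, at 5.21 ± 0.75, Pla2g7, a phospholipase, at 5.07 ± 0.62, and Trpa1, an irritant-sensing channel found on serotonin-making gut cells, at 4.86 ± 0.61. Further genes of this rank are known from neurons and endocrine cells: Syn2, a synaptic vesicle protein, at 4.81 ± 0.69, Cartpt, a neuropeptide gene, at 4.68 ± 0.68, Resp18, an endocrine granule protein, at 4.27 ± 0.64, and Sstr1, a somatostatin receptor, at 4.26 ± 0.72. Serpina1c, Gpx3, Gpr6 and Clu, the clusterin gene, differed by 4.69, 4.54, 4.33 and 4.32. Each of these calls held without any 1 of the 4 arrays.

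Fewer genes were strongly lower. Slc15a2, a peptide transporter, stood at 5.36 and 5.83 with NICD and at 8.89 and 10.43 in untreated cells, a difference of -4.07 ± 1.06, adjusted p = 0.0302, which was lost without any 1 of the 4 arrays, at adjusted p from 0.0567 without untreated replicate 1 to 0.209 without untreated replicate 2. The 5 lower calls that held in every such fit were Erdr1, Afm, H3f3b, Slc35e1 and Itga6. Erdr1 stood at 8.71 and 8.47 with NICD and at 12.14 and 12.27 in untreated cells, a difference of -3.62 ± 0.63, adjusted p = 0.00239. Afm, a vitamin E carrier related to Afp, had levels of 6.26 and 5.07 with NICD and 8.74 and 8.51 in untreated cells and differed by -2.96 ± 0.39, adjusted p = 0.000352. H3f3b, a gene of the histone variant H3.3, differed by -1.69 ± 0.21, adjusted p = 0.000202. Slc35e1 differed by -1.32 ± 0.22 and Itga6, an integrin of the basal cell surface, by -1.02 ± 0.17, but a second probe set of each gave 0.02 and -0.17, so these calls rest on 1 probe set. Fgf1, a growth factor, differed by -1.79 ± 0.33, adjusted p = 0.00329 (0.0567 without untreated replicate 1).

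Markers of other cell types were checked beside these groups. Of 12 epithelial genes limma called 0, against 4.70% of all genes higher and 1.86% lower. Its unadjusted p was under 0.05 for 2 of the 12, and for 2854 of all 11854 genes. The list median was 0.25, with 0.38 without NICD replicate 1 and 0.05 without NICD replicate 2. Epcam, the epithelial adhesion protein, stood at 12.49 and 12.61 with NICD and at 12.45 and 12.88 in untreated cells. A second Epcam probe set was higher by 0.85 and passed, with limma's adjusted p = 0.0394 over all probe sets kept. Of 7 tested B and plasma cell genes 3 were higher, against 4.70% of all genes, and 0 were called without NICD replicate 2 or without either untreated array. The signals of the 7 summed to 15014 and 14755 on the NICD arrays and to 4523 and 5437 on the untreated arrays. Ighm, an antibody heavy chain, was higher by 2.93 ± 0.76 and Cd79a, part of the B cell receptor, by 2.38 ± 0.63, at adjusted p = 0.0295 and 0.0311. Without NICD replicate 2 their adjusted p was 0.202 and 0.21, without untreated replicate 1 0.146 and 0.107, and without untreated replicate 2 0.11 and 0.158. Sdc1, a surface protein of plasma cells and of epithelium, passed as well, by 1.12 ± 0.31, with adjusted p = 0.457 without NICD replicate 2, 0.172 without untreated replicate 1 and 0.126 without untreated replicate 2. The other 4 tested members, Ms4a1, Jchain, Mzb1 and Pou2af1, differed by 0.50 to 1.78 and did not pass. Vim, an intermediate filament protein of non-epithelial cells, was higher by 3.01 ± 0.47, adjusted p = 0.00125. Of the stromal and endothelial list 2 genes were tested, Vim and Pecam1, with a median difference of 2.53. For each of the 2, both NICD arrays lay above both untreated arrays, against 25.6% of all genes. Pecam1 did not pass. The collagen and muscle genes of the list were too dim to be tested, Col1a1 at 6.07 and 6.56 with NICD and at 5.14 and 4.63 in untreated cells. Limma called 0 of 10 tested T cell and 0 of 7 tested myeloid genes. An unadjusted p under 0.05 was reached by 2 of each, and by 2854 of all 11854 genes. Signals of the tested T cell genes summed to 1530 and 1151 with NICD and 982 and 330 in untreated cells. Those of the tested myeloid genes summed to 8151 and 9982 with NICD and 7924 and 5988 in untreated cells. Another 4 T cell and 7 myeloid genes were listed but not tested. Of these, C1qa stood at 7.37 and 7.75 with NICD and at 4.81 and 4.59 in untreated cells. Aif1 stood at 4.19 and 4.49 with NICD and at 4.33 and 4.46 in untreated cells. The part of these cells in the results was not tested.

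Lists of signalling and stress genes held from 0 to 2 calls each. Higher calls were 10.5% of the tested interferon list and 28.6% of the BMP list, against 4.70% of all genes. Lower calls were 10.0% of the unfolded protein response list, against 1.86% of all genes. Of the interferon list Gbp2 and Mx1, both antiviral proteins, were higher by 1.56 ± 0.43 and 1.27 ± 0.33, 2 of 19 tested, with adjusted p of 0.272 and 0.188 without NICD replicate 2, 0.252 and 0.108 without untreated replicate 1, and 0.0603 and 0.143 without untreated replicate 2. Of the BMP list 2 of 7 were higher, Id2 by 1.54 ± 0.37 and Id3 by 1.17 ± 0.33, both inhibitors of helix-loop-helix factors. Id2 lost its call without NICD replicate 1 (adjusted p = 0.0732) and without untreated replicate 2 (0.187), and Id3 without NICD replicate 2 (0.369), untreated replicate 1 (0.0869) or untreated replicate 2 (0.228). Of 20 genes of the unfolded protein response Ern1 and Atf4, a sensor and a transcription factor of that response, were lower by -0.74 ± 0.17 and -0.65 ± 0.17, with adjusted p of 0.176 and 0.229 without NICD replicate 2 and 0.0725 and 0.231 without untreated replicate 2. Ern1 also lost its call without untreated replicate 1, at 0.0983. A second probe set of Atf4 gave -0.10, so its call rests on 1 probe set, while further probe sets of Ern1 gave -1.07 and -0.37. Limma called 0 of 6 MHC class II, 0 of 13 immediate early and 0 of 10 intestinal identity genes. An unadjusted p under 0.05 was reached by 2, 1 and 1 of them, and by 2854 of all 11854 genes.

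The other treatments of CD24hi cells were set beside NICD, with the same untreated arrays as the controls of each, so likeness between them is not a result. Replicate 1 of the Lgr5-ablated group, which carried no NICD label, lay near the NICD arrays. It correlated at 0.948 with NICD replicate 1 and at 0.920 with NICD replicate 2, against 0.942 between the NICD arrays themselves. Chga stood at 12.64 on this array and at 9.49 on its partner, and Neurod1 at 11.50 and 9.41. On a scale with the untreated mean at 0 and the NICD mean at 1, the median position of the 20 enteroendocrine genes called higher was 0.72 on this array and 0.00 on its partner, and that of the 10 tuft genes 0.33 and 0.03. Irradiated and doxorubicin arrays lay between -0.08 and 0.07 for the enteroendocrine genes. For all 557 genes called higher the median position was 0.56 on Lgr5-ablated replicate 1 and 0.10 on its partner. On these 2 arrays Afp stood at 12.58 and 7.25 and Clu at 9.50 and 8.30. Not all NICD genes stood high on them: Gkn1 was at 4.43 and 4.47 and Heyl at 8.50 and 8.08. The B cell sum on Lgr5-ablated replicate 1 was 18640, against 4184 on its partner. For 444 of the 557 genes called higher, both NICD arrays lay above all 8 other CD24hi arrays. The genes were picked by the same NICD arrays and by the 2 untreated arrays among these 8, so this count is not a result. Without Lgr5-ablated replicate 1 in the fit, 600 genes were higher and 238 lower. For the 7 enterocyte genes called higher, the Lgr5-ablated arrays stood at 0.42 and 0.63 on the same scale, the irradiated arrays at 0.25 and 0.51 and the doxorubicin arrays at 0.82 and 0.90. Both NICD arrays lay above all 8 others for 2 of these 7 genes.

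**Figure D5:**
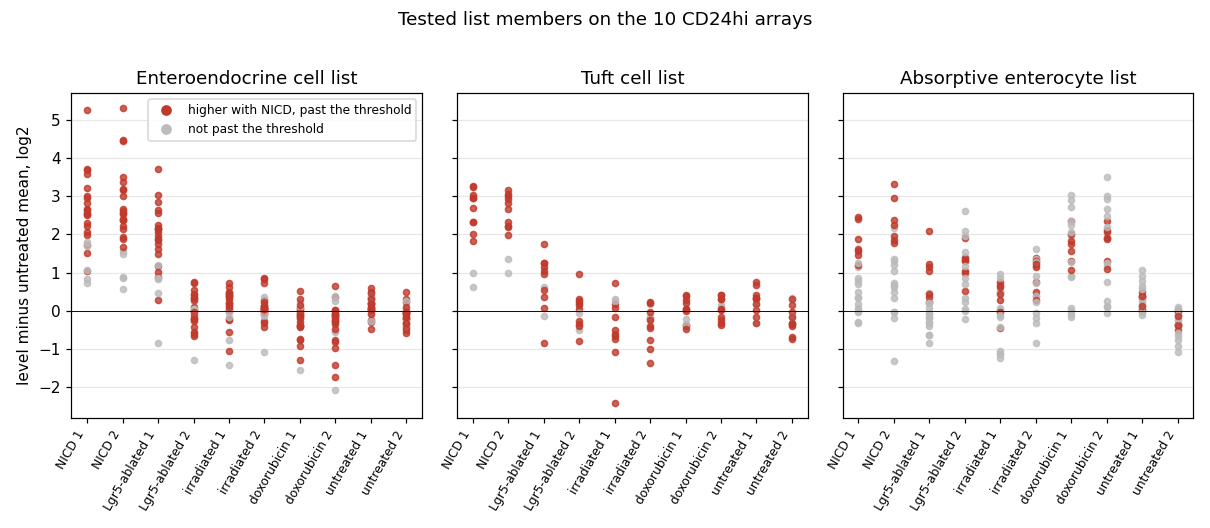
Points give the level of each tested member of 3 lists on the 10 CD24hi arrays, minus the mean of the 2 untreated arrays, on the log2(signal + 16) scale, with genes past the threshold for NICD in red. Enteroendocrine genes stand high on both NICD arrays and on Lgr5-ablated replicate 1, tuft genes highest on the NICD arrays, and enterocyte genes on the NICD, the doxorubicin and, to a lesser extent, the other treated arrays.

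CD24lo cells also had NICD arrays, with untreated arrays of their own. There 794 genes, 6.70%, were higher with NICD and 915, 7.72%, lower, though without NICD replicate 2 of that fraction 4 genes were called in all. Of the calls, 145 were shared with CD24hi cells in the same direction, which is 18.6% of the CD24hi and 8.48% of the CD24lo calls. Heyl differed by 2.87 in CD24hi cells and by 2.25 in CD24lo cells, Gkn1 by 7.07 in CD24hi and 5.54 in CD24lo cells, and Gkn2 by 4.25 in CD24hi and 4.21 in CD24lo cells, and each passed in both fractions. Nrarp passed in CD24lo cells, by 1.83, adjusted p = 0.00473. The effect in CD24hi cells minus the effect in CD24lo cells was tested directly, and 194 genes, 1.64%, were higher and 120, 1.01%, lower by this test, 2.65% in all. Enterocyte genes gave 8 of the 21 tested members as higher and 0 lower. Apoa4 differed by 2.25 in CD24hi and by -1.80 in CD24lo cells, and the difference of effects was 4.05 ± 0.66, adjusted p = 0.0122. For Krt20 it was 2.41 ± 0.30, adjusted p = 0.00392. This count rests on single arrays: without CD24lo NICD replicate 2 it was 0 in both directions, with 1850 genes at an unadjusted p under 0.05, and without CD24hi NICD replicate 2 it was 5 higher and 0 lower. Leaving out CD24hi NICD replicate 1 gave 2622 genes, CD24lo NICD replicate 1 753, CD24hi untreated replicates 1 and 2 10 and 21, and CD24lo untreated replicates 1 and 2 38 and 27. For Heyl, Neurod1, Snap25 and Gkn1 the difference of effects did not pass, at adjusted p of 0.542, 0.494, 0.282 and 0.295.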

How the data were processed

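The deposited table holds MAS5 signals, an intensity per probe set on a linear scale, for 45101 probe sets on 21 arrays, and the authors used MAS5, per the submitters' processing notes. From the values, each deposited array had a trimmed mean of 500 with 2% left out at each end. Detection calls and the number of cells per array were not used here.

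Values were taken as log2(signal + 16). Of the probe sets 34958 had 1 gene symbol in the platform annotation, 932 several and 9211 none, and only the first kind was used. Probe sets above the median of their array on at least 2 of 20 sorted arrays were kept (22531), and the one with the highest mean stood for each of 11854 genes. A gene high only with NICD could thus be kept through the 2 NICD arrays alone. Groups came from the sample titles. The test was limma's (version 3.58.1, R 4.3.3), fitting 10 group means to the sorted arrays with 10 residual degrees of freedom and moderating the variances by eBayes with a trend. P-values were two-sided and adjusted by the Benjamini-Hochberg method over all genes, with a threshold of 0.05. The number of arrays limits the precision. The script was tested on simulated data with known changes.

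The members and the gene lists were chosen with earlier results of these data known. Genes named in the text are fixed Notch, lineage and cell cycle genes, up to 6 called members of each list with the largest difference, the 15 largest higher and lower calls without overlap of the arrays, the 10 largest in each direction that held without any 1 array, and the 5 largest in each direction for the difference between fractions. Others are said to be named after their values were seen or illustrate members that did not pass. Alternatives changed the pseudocount, the scaling, the filter, the probe set rule, the variance moderation, the arrays in the fit, their weights and a block for the replicate number. A fit without Lgr5-ablated CD24hi replicate 1 was added after the data were seen.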

Additional observations from a re-analysis of the deposited data

Results flagged for a closer look

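The effect of NICD in CD24hi cells minus its effect in CD24lo cells passed limma's test of that difference for 194 genes above 0 and 120 below 0, and the values that follow are these differences on the log2 scale, with adjusted p from 0.00392 to 0.0488. Among tuft and enteroendocrine genes they were 3.12 for Trpm5, 2.46 for Dclk1, 2.24 for Avil, 3.15 for Cck, 2.25 for Gip and 2.16 for Sct. Enterocyte genes gave 4.05 for Apoa4, 3.75 for Lct, 3.68 for Apoc3, 3.48 for Apoa1, 3.10 for Rbp2, 2.41 for Krt20 and 2.23 for Apob. Of these, Apoa1, Apoa4 and Lct were called lower with NICD in CD24lo cells, by -1.57, -1.80 and -2.24.

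The cell cycle inhibitor gene Cdkn1a gave 2.12 and the BMP target Id3 gave 2.32. Values below 0 were -1.04 for Itch, -1.03 for Ern1, -1.26 for H3f3b, -1.26 for Itga6, -1.89 for Etnppl and -2.57 for Gem. The largest values above 0 over all genes were 4.70 for Dgki, 4.61 for Ighg3, an antibody heavy chain gene, and 4.07 for G6pc, a glucose-releasing enzyme. The largest below 0 were -3.73 for Ccr2, a chemokine receptor of immune cells, -3.35 for Clca3a2, -2.88 for Ripor2, -2.76 for Tubgcp5 and -2.64 for Casp8ap2. Ccr2 differed by 0.14 in CD24hi cells and by 3.87 in CD24lo cells. Without CD24lo NICD replicate 2, 0 genes passed this test in limma, with 1850 at an unadjusted p under 0.05.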

How the results depend on the processing

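The comparison in CD24hi cells called 778 genes, and leaving out 1 of its arrays gave 206 to 2238. It gave 300 with array weights, where 262 were higher and 38 lower, and 456 with only the groups compared in the fit, 424 higher and 32 lower. The other alternatives, among them the pseudocounts, scalings and filters, stayed within 1.5 times of 778, and 0 named genes reversed. The comparison in CD24lo cells called 1709 genes, 861 with only the groups compared, and 4 to 1741 with 1 array left out. The difference between fractions called 314 genes, against 56 with no filter, 42 with no trend, 31 with array weights, 74 with only the groups compared, and 0 to 2622 with 1 array left out. With the replicate block it called 199, and the CD24hi comparison called 703. Same-numbered arrays of the CD24hi groups deviated together with r = 0.21 and those of the CD24lo groups with r = -0.02. Across fractions r was -0.15 for the NICD arrays and 0.34 for the untreated arrays, whose same-numbered arrays also matched in Xist and Eif2s3y. The numbers were not taken as pairs. The cause of these shifts was not tested. Fits that leave out 1 array leave 1 array in its group, which is assumed to vary like the other groups.

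Of 96 named genes called in CD24hi cells, 48 lost their call without NICD replicate 2, 44 without untreated replicate 2, 37 without untreated replicate 1 and 4 without NICD replicate 1. Array weights ended 37 of these calls and the fit of only the groups compared 20.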
